A study of Drosophila melanogaster with 12 samples.

Results

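Heads of female fruit flies that had spent 7 days alone were compared with heads of females that had spent the same time in same-sex groups of 25. The comparison took the 3 libraries labelled as isolated females against the 3 labelled as group-housed (control) females, out of 12 libraries in the series, and every feature with an FBgn identifier that passed the expression filter. That left 9810 of 17856 FBgn features, which were tested together with 428 other features (mostly transposable element insertions), 10238 in all of the 24228 in the table. All flies were adult Drosophila melanogaster of the Oregon-R (ORE-R) wild-type stock with no transgene or mutation named in the labels, and each library held polyA RNA from 200 pooled whole heads. Both groups first lived with males for 3 to 5 days from eclosion, were then kept singly or in groups, and were frozen on dry ice within 24 h of the end of housing. The labels do not give mating status. The 6 male libraries of the same design also entered the expression filter, the scaling and the fit, where the spread and the batch term were estimated over all 12 libraries. They also served for the difference between the sexes. Separate cultures are not stated as the source of the pools, so a p-value here speaks only of the variation among these libraries, some of which may be technical.

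A fly head holds, beside the brain and the eyes, a layer of fat body, the insect tissue that does the work of liver and adipose tissue together. It stores fat and glycogen, breaks down amino acids, makes purines, and secretes storage proteins, lipid carriers, immune peptides and, in females, yolk proteins into the blood. Isolation is a social treatment, known in flies to alter sleep, feeding and aggression, and feeding state is one of the main regulators of fat body transcription.

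Total counts ran from 5351208 to 17122099 in group-housed and from 2584050 to 9637727 in isolated females, and replicate 0 of each group belonged to batch 1 and replicates 1 and 2 to batch 2, per the labels. Isolated replicates 1 and 2 stood apart before any gene was tested. They lay, on the axis of largest variance among all tested features (first principal component, 29.1%), at 60.1 and 46.1, against 3.48 for isolated replicate 0 and at most 22.0 elsewhere, and they had the lowest totals and TMM factors (0.861 and 0.894). Many of the results, though not those of every gene named, are therefore also given with isolated females represented by replicate 0 alone. That library is then assumed to vary like the other groups. The defining markers of head tissues were present in every female library. As sums of CPM of the library total, neuron genes took 10318 to 14935 in group-housed and 11803 to 12288 in isolated females, photoreceptor genes 22323 to 24768 and 19254 to 23025, glia genes 3278 to 3817 and 3267 to 3917, and muscle genes 6995 to 8177 and 7157 to 7201, so on this scale the groups overlapped for each. Ovary transcripts varied between libraries rather than groups: the yolk receptor gene yl stood at 157 CPM of the library total in group-housed replicate 1 and 45.0 in isolated replicate 2, at 10.1 in isolated replicate 1 and below 1 in the other 3, and osk was at 0 in group-housed replicates 0 and 2 and isolated replicate 1. The strand setting of the counting was not given, so reads from exon sequence that genes share cannot be told apart. To the extent of the shared part, this makes these genes named below uncertain: AdSS, apolpp, asRNA:CR45046, atk, ATPCL, ATPsynbeta, AttC, Boh1, bur, bw, CG10962, CG11089, CG11180, CG11854, CG7227, CG8036, cn, colt, Cp1, Cyp28d1, Cyp4s3, Cys, fit, Gart, Gdh, Gnmt, Got2, Hpd, Idgf4, Ir76a, Lsp2, Ndg, Nmdmc, Obp83ef, Obp99c, Pdss2, Pfas, Pgd, PGRP-SD, Prat, Prps, pug, ras, Rpi, Sap-r, Sas10, Shmt, spz, Tep2, tobi, Ugt37A1, Ugt49B1, Yp1 and Zw.

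Isolation was accompanied by many more rises than falls. Of the 10238 features tested, 334 were higher in isolated females (3.26%) and 22 were lower (0.215%) at an adjusted p under 0.05, and 332 and 22 of them were FBgn genes. With library totals in place of TMM scaling, which moves the median of all features by -0.21, the split was 134 higher and 33 lower. The higher features ranged from 0.45 to 5.30 in log2 fold change with a median of 0.89. Among the higher genes 197 differed by less than 2-fold, 106 by 2 to 4-fold, 14 by 4 to 8-fold and 15 by 8-fold or more. Over all features the median log2 fold change was -0.02 and 47.6% were above 0. In 321 of the 334 higher features all isolated libraries lay above all group-housed ones, as did 945 of all features tested (9.23%), and in 21 of the 22 lower ones all lay below, as did 724 of all features (7.07%). The higher genes were mostly well expressed, with a median mean log2 CPM of 6.72 against 5.13 for all tested genes, and 98.2% were protein coding against 95.6%.

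**Figure D1:**
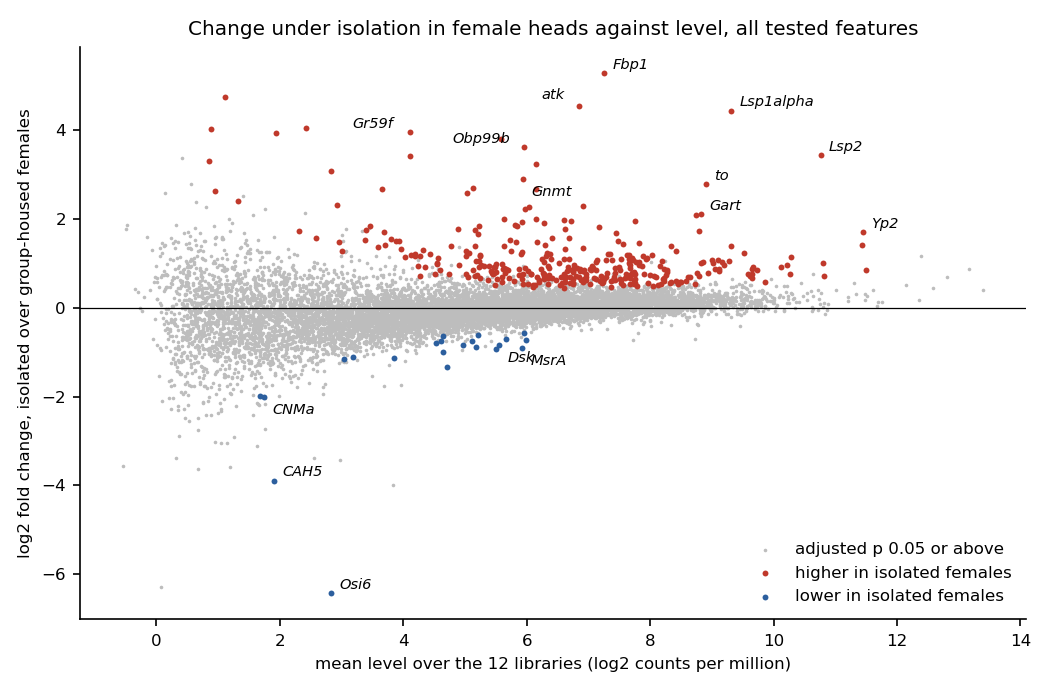
Log2 fold change of isolated over group-housed females (vertical axis) against the mean level over the 12 libraries (log2 CPM, horizontal axis) for the 10238 features tested. Red points are the 334 higher and blue points the 22 lower features, and labelled genes are named in the text.

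The direction of every called feature was the same in both batches, which are not independent of the call. All 334 higher features had a positive difference in batch 1, with 1 library per group, and in batch 2, and all 22 lower ones a negative difference in both. The median difference of the higher genes was 1.02 in batch 1 and 0.84 in batch 2 on the log2 scale. With isolated females represented by replicate 0 alone, 90 features were higher (0.75% of 12005 tested) and 1 lower (0.00833%), and 89 of the 334 were among them. Leaving out 1 female library gave between 158 and 464 called features in place of 356, and 132 of the higher features and 1 of the lower held in all 6 such fits. The total was 158 without group-housed replicate 0, 191 without isolated replicate 0, 209 without isolated replicate 1 and 229 without isolated replicate 2.

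**Figure D2:**
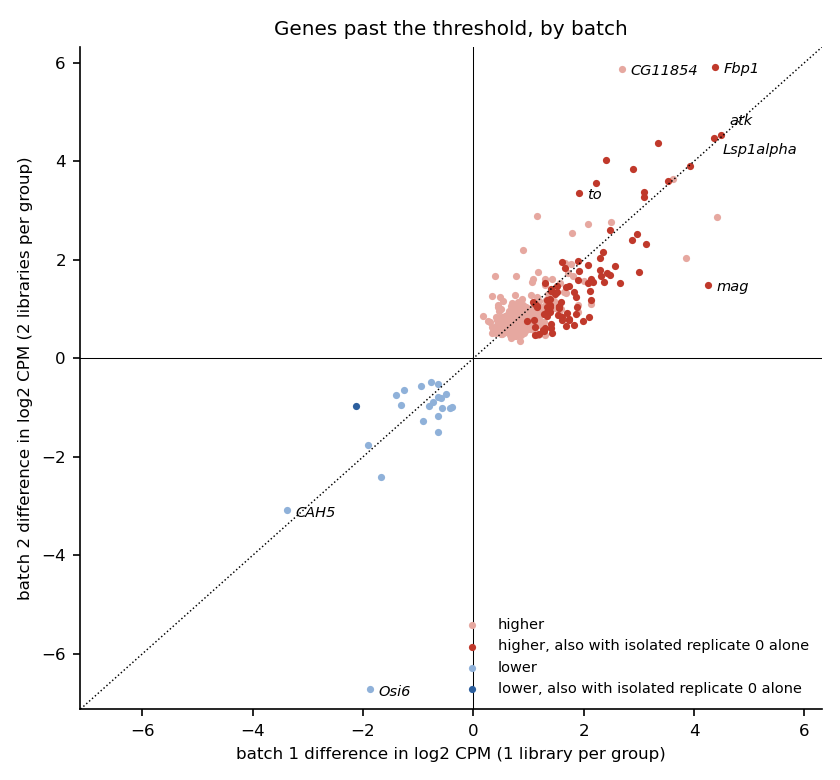
Difference in log2 CPM between isolated and group-housed females in batch 1 (horizontal axis, 1 library per group) and batch 2 (vertical axis, 2 libraries per group) for the 356 features past the threshold. All points have the same sign on both axes, and dark points also passed with isolated replicate 0 alone.

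Among the genes with large rises were those of storage proteins of the fat body, which larvae and pupae use as an amino acid reserve. Fbp1 (FBgn0000639, chromosome 3L, 14094589 to 14098053, minus strand in BDGP6.54), known in larvae as the fat body receptor that takes these proteins up, stood, in the order of replicates 0, 1 and 2 used throughout, at 30.1, 8.64 and 10.1 CPM in group-housed and 632, 669 and 500.3 CPM in isolated heads (log2 fold change 5.30, SE 0.35, adjusted p = 1.75e-06). The hexamerin gene Lsp1alpha (FBgn0002562, chromosome X, 12490291 to 12492982, plus strand) stood at 96.4, 60.9 and 64.3 CPM in group-housed and 1997, 1547 and 1273 CPM in isolated heads (log2 fold change 4.45, SE 0.18, adjusted p = 2.89e-10). These levels, as all single gene levels here, are CPM relative to TMM-scaled library sizes, and SE is the standard error of the log2 fold change in the edgeR quasi-likelihood fit over 12 libraries, with Benjamini-Hochberg adjusted p. The related hexamerin gene Lsp2 stood at 869, 309 and 259 CPM in group-housed and 4603, 4915 and 4372 CPM in isolated heads (log2 fold change 3.44, SE 0.30, adjusted p = 3.32e-06). For all of them each isolated library lay above each group-housed one, and group-housed replicate 0 was the highest of its group. Lsp1beta, the remaining member tested, was already at 6011, 9223 and 8133 CPM in group-housed and reached 9678, 14279 and 14031 CPM in isolated females without passing (log2 fold change 0.70, SE 0.22, adjusted p = 0.107). Thus 3 of 4 tested members were higher (75%, against 3.48% of all features called), with a median of 3.95. In bulk samples such as these heads, fewer or more cells of a type and less or more RNA per cell cannot be told apart. Without group-housed replicate 0 the log2 fold change of Fbp1 was 5.90. Fbp1, Lsp1alpha and Lsp2 held their calls in all 6 fits that left out 1 female library. Fbp1, Lsp1alpha and Lsp2 still passed with isolated replicate 0 alone.

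Among yolk proteins and lipid carriers, other secreted products of the fat body, 2 and 3 genes were higher, by smaller factors. The 2 yolk protein genes were 66.7% of the 3 tested, against 3.48% of all features called. Yp2 stood at 1631, 2571 and 3502 CPM in group-housed and 5690.2, 10344 and 8878 CPM in isolated heads (log2 fold change 1.70, SE 0.39, adjusted p = 0.0284). Yp3 stood at 2074, 3061 and 3654 CPM in group-housed and 6481, 9019 and 8066 CPM in isolated heads (log2 fold change 1.43, SE 0.33, adjusted p = 0.0259), with no overlap between groups. Yp1 had overlapping libraries, at 3466, 6809 and 9156 CPM in group-housed and 8959, 18707 and 15360.0 CPM in isolated heads, and did not pass (log2 fold change 1.17, SE 0.41, adjusted p = 0.187). Mtp, the transfer protein that loads fat onto lipoproteins, stood at 183, 178 and 190.1 CPM in group-housed and 479.6, 419 and 359 CPM in isolated heads (log2 fold change 1.18, SE 0.15, adjusted p = 0.000114). Apoltp, the lipid transfer particle, rose from 1078 ± 38.2 to 2047 ± 124 CPM (SD, n = 3) (log2 fold change 0.93, SE 0.20, adjusted p = 0.0146), and the lipoprotein receptor family gene LRP1 from 431 ± 41.3 to 772 ± 101 CPM (SD, n = 3) (log2 fold change 0.84, SE 0.18, adjusted p = 0.0136). apolpp, the core protein of the main lipid carrier, did not pass, at 7102, 6789 and 10520.1 CPM in group-housed and 14648, 16214 and 13806 CPM in isolated heads (log2 fold change 0.87, SE 0.23, adjusted p = 0.0501). Of 11 lipoproteins, receptors and lipocalins 3 were higher (27.3%, against 3.48% of all features called), with a median of 0.46. The fat body markers apolpp, Apoltp and Lsp2 together took 8961 to 10736 CPM of the library total in group-housed and 18151 to 20360 in isolated females, none at 0 in any library, and their part in the other results was not tested. Mtp held its call in all 6 fits that left out 1 female library. Yp2 lost its call in each fit that left out 1 female library (adjusted p up to 0.156). Yp3 lost its call without group-housed replicate 0 or 1 or isolated replicate 0, 1 or 2 (adjusted p up to 0.163). Apoltp lost its call without group-housed replicate 0 or isolated replicate 1 or 2 (adjusted p up to 0.118). LRP1 lost its call without group-housed replicate 0 or isolated replicate 0 or 2 (adjusted p up to 0.108). Mtp still passed with isolated replicate 0 alone. Yp2, Yp3, Apoltp and LRP1 did not pass with that library alone (adjusted p = 0.938, 0.996, 1 and 0.733).

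Secreted carrier proteins of small lipophilic molecules included takeout and an adjacent relative among the higher genes. The takeout gene, symbol to (FBgn0039298, chromosome 3R, 25240180 to 25241668, plus strand), linked to feeding and to the circadian clock, is the gene named in the title of the series. It stood at 157, 53.7 and 104 CPM in group-housed and 594, 890.2 and 663 CPM in isolated heads (log2 fold change 2.80, SE 0.34, adjusted p = 0.000387). CG11854, its neighbour on the same strand and a member of the same family, stood at 12.5, 0.849 and 0.825 CPM in group-housed and 82.4, 78.7 and 48.2 CPM in isolated heads (log2 fold change 3.81, SE 0.61, adjusted p = 0.0086), with group-housed replicate 0 far above the other group-housed libraries. Its value was 6.18 without that library. Both genes had non-overlapping groups. No other of the 20 tested family members passed (10% called, against 3.48% of all features), and the family's median was -0.01. Among 30 odorant binding proteins 4 were higher (13.3%, against 3.48% of all features called). Obp99b stood at 8.94, 4.95 and 1.03 CPM in group-housed and 92.8, 53.1 and 52.04 CPM in isolated heads (log2 fold change 3.63, SE 0.36, adjusted p = 4.79e-05). Obp99c stood at 156, 189 and 162 CPM in group-housed and 357, 406 and 385 CPM in isolated heads (log2 fold change 1.18, SE 0.17, adjusted p = 0.000541), while Obp99a and Obp83ef rose by 1.18 (SE 0.24, adjusted p = 0.0108) and 1.29 (SE 0.30, adjusted p = 0.0216). These small secreted proteins bind odorants and other hydrophobic molecules, and for Obp99b and Obp99c the groups did not overlap. fit, a female-enriched gene of the head fat body, stood at 114, 66.5 and 51.3 CPM in group-housed and 397, 388 and 303 CPM in isolated heads (log2 fold change 2.29, SE 0.29, adjusted p = 0.000529). It shares exon sequence with asRNA:CR45046 on the same strand, which was also called (1.86), so reads from the shared part cannot be told apart. The gustatory receptor gene Gr59f stood at 3.08, 1.56 and 0.825 CPM in group-housed and 49.8, 17.1 and 23.6 CPM in isolated heads (log2 fold change 3.96, SE 0.29, adjusted p = 6.11e-07). It was the 1 called member of 8 tested gustatory receptors (12.5%, against 3.48% of all features), a count too small to be read as a result about the list. Gr59f lies next to bw, an eye pigment transporter gene that was also higher, by 0.62 (SE 0.15, adjusted p = 0.0334). None of 28 odorant receptors or 19 ionotropic receptors passed, which in lists of these sizes is not read as a result. Of these the abundant coreceptor gene Orco was at -0.16 and Ir76a at -0.35. to, CG11854, Obp99b, Obp99c, fit and Gr59f held their calls in all 6 fits that left out 1 female library. Obp99a lost its call without group-housed replicate 0 or isolated replicate 1 or 2 (adjusted p up to 0.126). Obp83ef lost its call without group-housed replicate 0 or 1 or isolated replicate 0 or 1 (adjusted p up to 0.141). With isolated replicate 0 alone the log2 fold change was 0.93 for Obp99a and 1.38 for Obp83ef. to, Obp99b and Gr59f still passed with isolated replicate 0 alone. CG11854, Obp99c and fit did not pass with that library alone (adjusted p = 0.164, 0.0928 and 0.0668).

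Several of the other large rises were in genes of few or unnamed functions. atk, an extracellular leucine-rich repeat protein, stood at 5.14, 5.80 and 4.95 CPM in group-housed and 120.2, 117 and 143 CPM in isolated heads (log2 fold change 4.56, SE 0.19, adjusted p = 3.66e-10). fiz, an oxidoreductase of the glucose-methanol-choline family, stood at 3.65, 0.708 and 1.24 CPM in group-housed and 28.7, 13.9 and 19.4 CPM in isolated heads (log2 fold change 3.43, SE 0.35, adjusted p = 1.42e-05). CG34166 stood at 20.9, 11.2 and 16.5 CPM in group-housed and 180.5, 160.1 and 129 CPM in isolated heads (log2 fold change 3.25, SE 0.21, adjusted p = 1.44e-07). CG10962 stood at 15.3, 15.7 and 15.1 CPM in group-housed and 121, 93.96 and 85.001 CPM in isolated heads (log2 fold change 2.71, SE 0.25, adjusted p = 5.11e-06). CG7763 went from 3.08 ± 1.78 to 27.3 ± 9.16 CPM (SD, n = 3), 3.09 (SE 0.44, adjusted p = 0.00045) in log2. CG1979 went from 3.32 ± 1.33 to 21.4 ± 11.3 CPM (SD, n = 3), 2.68 (SE 0.39, adjusted p = 0.000555) in log2. In each of these 6 genes every isolated library lay above every group-housed one. At low levels, meep stood at 0.463, 0 and 0.412 CPM in group-housed and 7.65, 4.05 and 4.51 CPM in isolated heads (log2 fold change 4.06, SE 0.59, adjusted p = 0.000612). The lipase gene mag stood at 0, 0.425 and 0.206 CPM in group-housed and 3.99, 0.899 and 1.73 CPM in isolated heads (log2 fold change 3.95, SE 0.86, adjusted p = 0.0145). CG18180 stood at 0.463, 0 and 0 CPM in group-housed and 8.19, 1.80 and 3.47 CPM in isolated heads (log2 fold change 4.74, SE 1.01, adjusted p = 0.0124). All 3 were below 1 CPM in each group-housed library. CG30090 stood at 1.18, 1.98 and 0 CPM in group-housed and 7.65, 5.39 and 3.82 CPM in isolated heads (log2 fold change 2.33, SE 0.54, adjusted p = 0.0228). Fitted values of genes with a library at 0 depend on the fit: leaving out 1 library moved CG18180 to 7.32 without group-housed replicate 0, mag to 5.50 without group-housed replicate 1, meep to 4.92 without group-housed replicate 0 and CG30090 to 3.09 without group-housed replicate 1. The value of mag in females was 2.65 without group-housed replicate 0 and 2.87 without isolated replicate 0. fiz, with no library at 0, moved to 4.14 without group-housed replicate 0. atk, fiz, CG34166, CG10962, CG7763, CG1979 and meep held their calls in all 6 fits that left out 1 female library. mag and CG18180 lost their calls without group-housed replicate 0 or isolated replicate 0 (adjusted p up to 0.191 and 0.103). CG30090 lost its call without group-housed replicate 0 or isolated replicate 0, 1 or 2 (adjusted p up to 0.235). atk, fiz, CG34166, CG10962, CG7763, CG1979, meep and mag still passed with isolated replicate 0 alone. CG18180 and CG30090 did not pass with that library alone (adjusted p = 0.249 and 0.331).

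**Figure D3:**
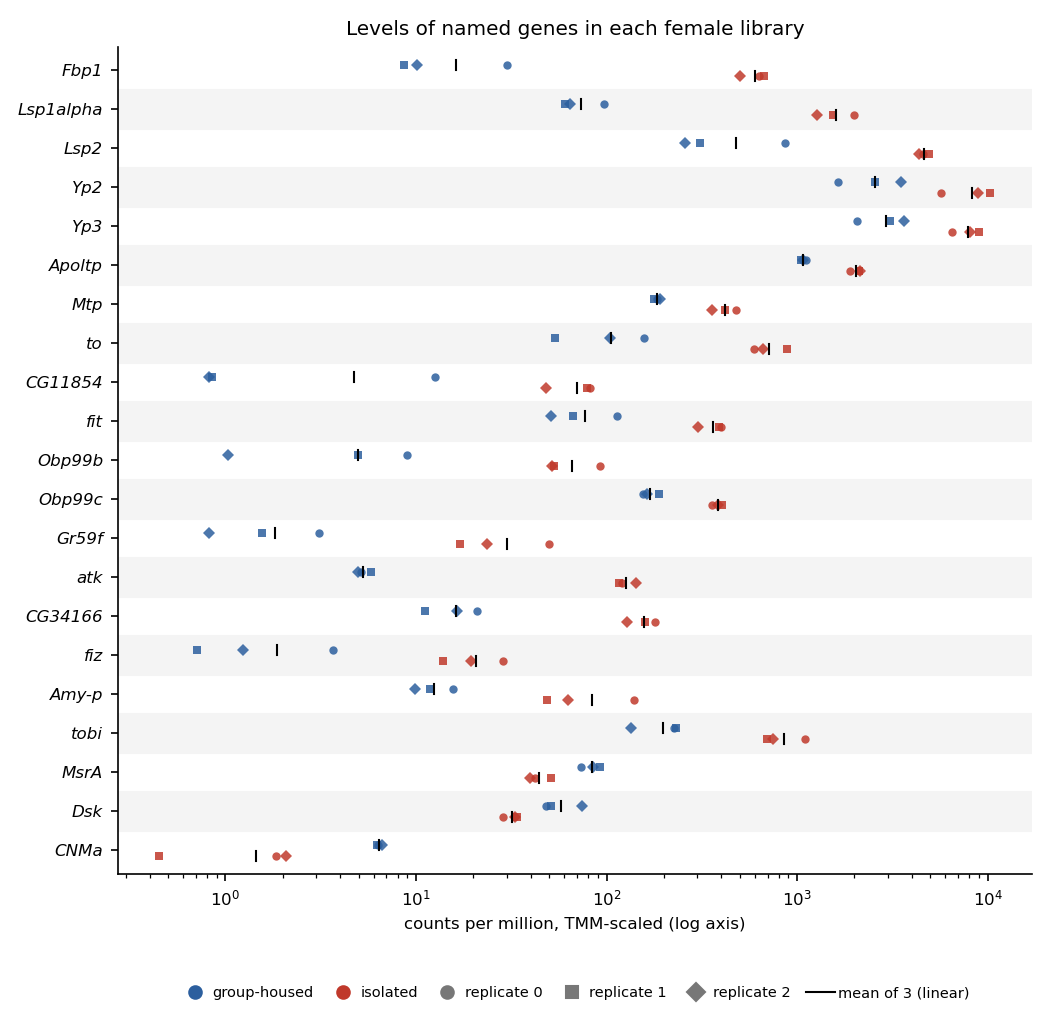
Levels in CPM (log axis) of 21 genes in each female library, with group-housed libraries in blue, isolated libraries in red, replicates by marker shape and the linear mean of 3 libraries as a bar. The groups do not overlap in any of these genes, and MsrA, Dsk and CNMa are the ones that lie lower in isolated females.

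Several genes of de novo purine synthesis were higher. This pathway builds the purine ring on a ribose phosphate with glycine, glutamine, aspartate and formyl groups carried by folate. In a list of 11 pathway genes written after the values were seen, 7 were higher (63.6%, against 3.48% of all features called) and the median was 0.97. As its members were picked with their values known, that share is not read as a result. In the wider list of purine synthesis and breakdown, 1 of the 47, 6 of 14 tested genes were higher (42.9%, against 3.48% of all features called), with a median of 0.31 and 9 above 0. Along the pathway, Prps, which makes the activated ribose, rose by 0.95 (SE 0.21, adjusted p = 0.017), and Prat2, which catalyses the committed step, by 0.97 (SE 0.17, adjusted p = 0.00285). Gart (FBgn0000053, chromosome 2L, 7014623 to 7023898, minus strand), which encodes 3 steps in 1 protein, stood at 137, 189 and 181 CPM in group-housed and 815, 632 and 725 CPM in isolated heads (log2 fold change 2.12, SE 0.21, adjusted p = 1.15e-05). The next enzymes of the ring assembly moved with it. Pfas stood at 176, 197 and 179 CPM in group-housed and 417, 373 and 352 CPM in isolated heads (log2 fold change 1.05, SE 0.16, adjusted p = 0.00114). Paics stood at 269, 349 and 513 CPM in group-housed and 776, 801 and 754 CPM in isolated heads (log2 fold change 1.08, SE 0.19, adjusted p = 0.00273). AdSL, which acts also in AMP synthesis, stood at 45.5, 68.1 and 79.8 CPM in group-housed and 167, 156 and 147 CPM in isolated heads (log2 fold change 1.34, SE 0.20, adjusted p = 0.000663). CG11089, listed by RefSeq under the synonym atic for the last enzyme before IMP, stood at 144, 204 and 221 CPM in group-housed and 608, 592 and 644 CPM in isolated heads (log2 fold change 1.73, SE 0.17, adjusted p = 1.32e-05). In these 5 genes every isolated library lay above every group-housed library. The genes beyond IMP did not pass: AdSS was at -0.07 (adjusted p = 0.894), ras, the IMP dehydrogenase, at -0.01 (adjusted p = 0.985), and bur, the GMP synthetase, at 0.26 (adjusted p = 0.36). Prat, the paralog of Prat2, was at -0.95 (adjusted p = 0.187). ry, the xanthine dehydrogenase of purine breakdown, rose from 81.6 ± 8.07 to 166 ± 8.28 CPM (SD, n = 3) (log2 fold change 1.04, SE 0.15, adjusted p = 0.000612). Gart, Pfas, Paics, AdSL, CG11089, Prat2 and ry held their calls in all 6 fits that left out 1 female library. Prps lost its call without group-housed replicate 0 or isolated replicate 0 or 1 (adjusted p up to 0.121). Gart, Paics, AdSL, CG11089 and ry still passed with isolated replicate 0 alone. Pfas, Prat2 and Prps did not pass with that library alone (adjusted p = 0.0585, 0.0668 and 0.216).

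Genes that handle glycine, threonine and one-carbon units, which feed purine synthesis, were higher in part. Gnmt, which methylates glycine with S-adenosylmethionine, stood at 13.4, 6.51 and 4.54 CPM in group-housed and 63.6, 75.1 and 58.98 CPM in isolated heads (log2 fold change 2.90, SE 0.27, adjusted p = 1.42e-05). Sardh, which turns the resulting sarcosine back to glycine, stood at 77.2, 135 and 132 CPM in group-housed and 273, 340.3 and 339 CPM in isolated heads (log2 fold change 1.51, SE 0.13, adjusted p = 2.49e-06). pug, the cytoplasmic folate enzyme that supplies formyl groups, rose by 1.23 (SE 0.19, adjusted p = 0.000805), Nmdmc, its mitochondrial counterpart, by 0.81 (SE 0.14, adjusted p = 0.0021), and Shmt, which splits serine into glycine and a one-carbon unit, by 1.23 (SE 0.23, adjusted p = 0.00507). For Gnmt and Sardh, as for pug, Nmdmc and Shmt, the groups did not overlap. Sam-S, which makes S-adenosylmethionine, stood at 417, 582 and 824 CPM in group-housed and 737, 1007 and 961 CPM in isolated heads and did not pass (log2 fold change 0.59, SE 0.17, adjusted p = 0.0731). Of 15 methionine and one-carbon genes tested 5 were higher and 1, MsrA, was lower (40% called, against 3.48% of all features), with a median of 0.44. Threonine breakdown to glycine showed the same direction, with the dehydrogenase gene CG5955 (RefSeq symbol Tdh) at 23.4, 23.2 and 22.1 CPM in group-housed and 88.5, 90.4 and 66.6 CPM in isolated heads (log2 fold change 1.84, SE 0.17, adjusted p = 5.11e-06) and Gcat, the next enzyme, at 16.3, 13.2 and 12.4 CPM in group-housed and 51.9, 49.004 and 43.02 CPM in isolated heads (log2 fold change 1.77, SE 0.16, adjusted p = 5.11e-06). Both had groups that did not overlap. The gene CG3999, in the list of amino acid breakdown given next, rose by 1.95 (SE 0.30, adjusted p = 0.00214). Gnmt moved to 3.59 without group-housed replicate 0. Gnmt, Sardh, pug, Nmdmc, CG5955 and Gcat held their calls in all 6 fits that left out 1 female library. Shmt lost its call without group-housed replicate 0 or isolated replicate 0 (adjusted p up to 0.062). Gnmt, Sardh, pug, Shmt, CG5955 and Gcat still passed with isolated replicate 0 alone. Nmdmc did not pass with that library alone (adjusted p = 0.106).

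**Figure D4:**
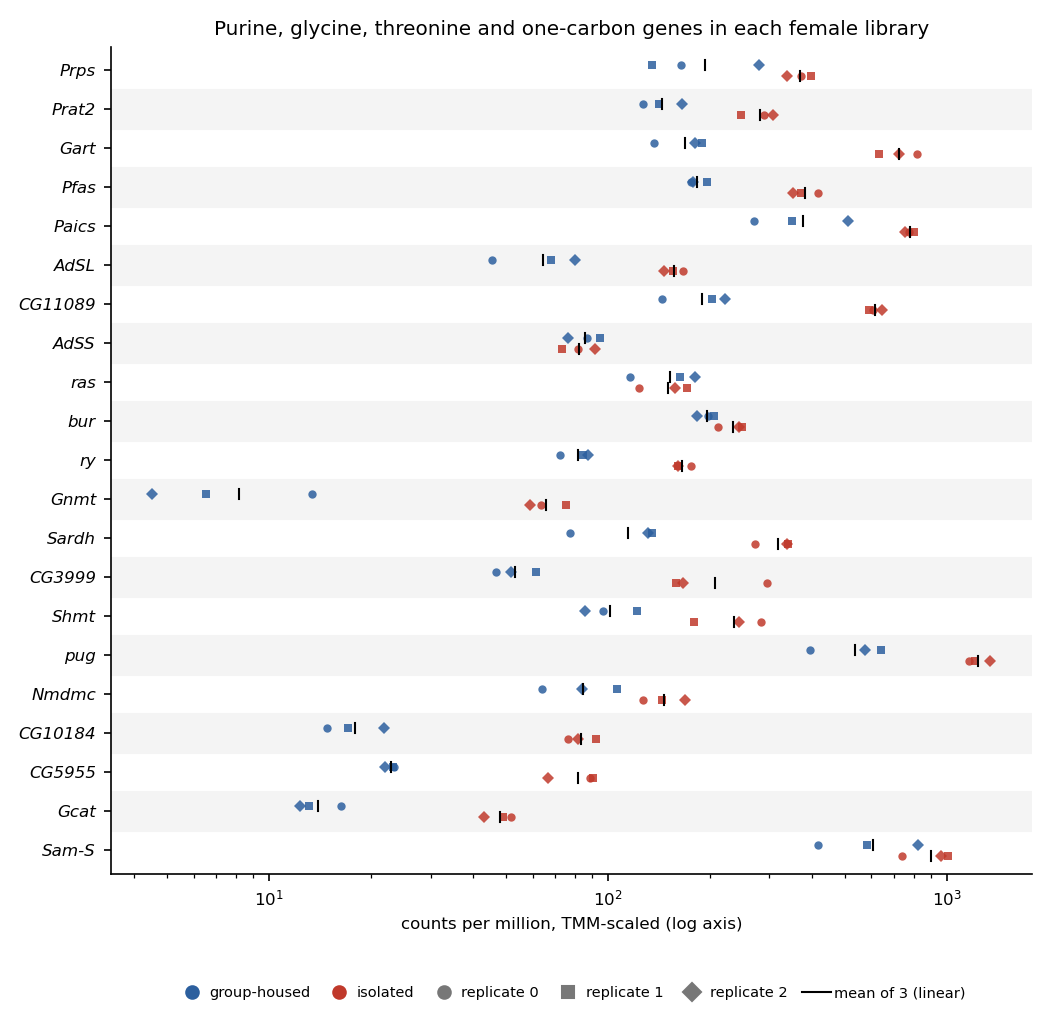
Levels in CPM (log axis) in each female library for 21 genes of purine synthesis and breakdown and of glycine, threonine and one-carbon metabolism, with markers as in the plot of named genes. Groups are apart for the 7 called purine synthesis genes, while AdSS and ras lie on top of each other in both groups.

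Several genes of amino acid breakdown were also higher. In a list of 42 tested genes, also written after the values were seen, 20 were higher (47.6%, against 3.48% of all features called) and none was lower. The median was 0.52, with 40 above 0. The list also holds Gnmt and CG3999, named in the previous paragraph. As its members were picked with their values known, its share is not read as a result. The aspartate aminotransferase genes Got1 and Got2 were both higher. Got1 went from 383 ± 38.9 to 743 ± 38.6 CPM (SD, n = 3), a change of 0.96 (SE 0.14, adjusted p = 0.00077) in log2. Got2 went from 142 ± 17.1 to 289.5 ± 45.7 CPM (SD, n = 3), a change of 1.03 (SE 0.21, adjusted p = 0.00856). Hn, the phenylalanine hydroxylase, stood at 210.0, 221 and 259 CPM in group-housed and 447, 402 and 390.3 CPM in isolated heads (log2 fold change 0.85, SE 0.15, adjusted p = 0.0032). Further along tyrosine breakdown, Hpd and Faa rose by 0.66 (SE 0.15, adjusted p = 0.0163) and 0.66 (SE 0.14, adjusted p = 0.0141). CG1673, given by RefSeq as the branched-chain aminotransferase Bcat, stood at 119.9, 93.6 and 122 CPM in group-housed and 249, 259 and 267 CPM in isolated heads (log2 fold change 1.21, SE 0.15, adjusted p = 0.000129). Oat, the ornithine aminotransferase, rose by 1.17 (SE 0.21, adjusted p = 0.00414) and Agxt by 0.91 (SE 0.23, adjusted p = 0.0356). All of these had groups that did not overlap. CG10184 stood at 14.9, 17.1 and 21.9 CPM in group-housed and 76.4, 92.2 and 81.9 CPM in isolated heads (log2 fold change 2.24, SE 0.17, adjusted p = 6.58e-07), and CG10814, outside the list, at 67.3, 37.7 and 40.4 CPM in group-housed and 231, 174 and 126 CPM in isolated heads (log2 fold change 1.87, SE 0.28, adjusted p = 0.00168). RefSeq gives these last genes the synonyms HTMLA and gamma-BBH, names of enzymes of carnitine synthesis. Gdh, the glutamate dehydrogenase, and the kynurenine pathway genes v and cn did not pass (0.12 for Gdh with adjusted p = 0.794, 0.63 for v with adjusted p = 0.0785 and -0.84 for cn with adjusted p = 0.722). Got1, Hn, CG1673, CG10184 and CG10814 held their calls in all 6 fits that left out 1 female library. Got2 and Oat lost their calls without group-housed replicate 0 or isolated replicate 0 (adjusted p up to 0.0921 and 0.0864). Agxt lost its call without group-housed replicate 0 or 2 or isolated replicate 0, 1 or 2 (adjusted p up to 0.225). Hpd lost its call without group-housed replicate 0 or 1 or isolated replicate 0 or 1 (adjusted p up to 0.146). Faa lost its call without group-housed replicate 0 or isolated replicate 0 or 1 (adjusted p up to 0.105). CG10184 and Oat still passed with isolated replicate 0 alone. Got1, Hn, CG1673, CG10814, Got2, Agxt, Hpd and Faa did not pass with that library alone (adjusted p = 0.0655, 0.0934, 0.0556, 0.0923, 0.0585, 0.441, 0.158 and 0.251).

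Carbohydrate genes changed in parts. The starch and maltose enzymes had 3 of 9 members higher (33.3%, against 3.48% of all features called) with a median of 0.55. Reads of the near-identical alpha-amylase genes Amy-p and Amy-d cannot be fully told apart. Amy-p stood at 15.7, 11.9 and 9.90 CPM in group-housed and 139, 48.6 and 62.5 CPM in isolated heads (log2 fold change 2.69, SE 0.33, adjusted p = 0.000414). Amy-d stood at 21.02, 20.2 and 13.8 CPM in group-housed and 106, 45.9 and 62.8 CPM in isolated heads (log2 fold change 1.94, SE 0.24, adjusted p = 0.000139). Both were highest in isolated replicate 0. The alpha-glucosidase gene tobi, known as a target of insulin-like signals from the brain, stood at 226, 230.2 and 134 CPM in group-housed and 1106, 695 and 748 CPM in isolated heads (log2 fold change 2.08, SE 0.20, adjusted p = 9.04e-06). In sugar metabolism 4 of 28 genes were higher (14.3%), with a median of 0.26: Sodh-1, Pepck2, fbp and Pgd. The sorbitol dehydrogenase gene Sodh-1 stood at 37.3, 37.7 and 31.96 CPM in group-housed and 165, 83.6 and 74.6 CPM in isolated heads (log2 fold change 1.58, SE 0.23, adjusted p = 0.000999). The gluconeogenesis genes Pepck2 and fbp rose by 1.32 (SE 0.22, adjusted p = 0.00241) and by 0.85 (SE 0.18, adjusted p = 0.0126). Pgd belongs to the pentose phosphate pathway, which makes NADPH and the ribose used for purines. Of 6 genes of that pathway, listed after the values were seen, 4 were higher (66.7%, against 3.48% of all features called). As they were picked with their values known, that share is not read as a result. The changes were 0.77 for Pgd (adjusted p = 0.00741), 0.76 for Rpi (adjusted p = 0.00591) and 0.78 for Taldo (adjusted p = 0.0134). CG8036, listed by RefSeq with the synonym Transk, was at 1.00 (adjusted p = 0.00139). Zw, the entry enzyme of that pathway, was at 0.57 (SE 0.18, adjusted p = 0.112). With replicate 0 alone the log2 fold change of Sodh-1 was 2.16. Amy-p, Amy-d, tobi, Sodh-1, Pepck2 and CG8036 held their calls in all 6 fits that left out 1 female library. fbp lost its call without group-housed replicate 0 or isolated replicate 0 or 1 (adjusted p up to 0.129). Pgd and Rpi lost their calls without group-housed replicate 0 or isolated replicate 0 (adjusted p up to 0.0826 and 0.101). Taldo lost its call without group-housed replicate 0 or isolated replicate 0 or 2 (adjusted p up to 0.108). Amy-p, Amy-d, tobi and Sodh-1 still passed with isolated replicate 0 alone. Pepck2, fbp, Pgd, Rpi, Taldo and CG8036 did not pass with that library alone (adjusted p = 0.444, 0.307, 0.0934, 0.158, 0.238 and 0.123).

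Fat metabolism held calls in both its lists. Of 23 fatty acid and triglyceride synthesis genes 3 were higher (13%, against 3.48% of all features called), with a median of 0.25: ATPCL, the citrate lyase that supplies acetyl groups, AcCoAS and Agpat2 (0.76 for ATPCL with adjusted p = 0.0146, 0.76 for AcCoAS with adjusted p = 0.0163 and 0.59 for Agpat2 with adjusted p = 0.0266). FASN1, the fatty acid synthase, was at 0.31 (SE 0.22, adjusted p = 0.592). Men, the malic enzyme, rose by 0.85 (SE 0.19, adjusted p = 0.0168). Of 15 lipolysis and oxidation genes 3 were higher (20%), with a median of 0.39. These were mag, described above, the carnitine carrier gene colt, at 0.59 (SE 0.13, adjusted p = 0.0194), and the triglyceride lipase gene bmm, which stood at 77.2, 81.1 and 81.2 CPM in group-housed and 152, 152 and 125 CPM in isolated heads (log2 fold change 0.85, SE 0.13, adjusted p = 0.00118), with no overlap. Hsl, the other main lipase, was at 0.29 (SE 0.13, adjusted p = 0.336). bmm held its call in all 6 fits that left out 1 female library. ATPCL and Men lost their calls without group-housed replicate 0 or isolated replicate 0, 1 or 2 (adjusted p up to 0.113 and 0.148). AcCoAS and Agpat2 lost their calls without group-housed replicate 0 or 1 or isolated replicate 0 or 1 (adjusted p up to 0.114 and 0.177). colt lost its call without group-housed replicate 0 or 2 or isolated replicate 1 or 2 (adjusted p up to 0.146). bmm still passed with isolated replicate 0 alone. ATPCL, AcCoAS, Agpat2, Men and colt did not pass with that library alone (adjusted p = 0.437, 0.56, 0.687, 0.223 and 1).

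Detoxification genes gave the largest count of any list. Of 72 tested cytochrome P450 genes 22 were higher and 1, Cyp4d1, was lower (31.9% called, against 3.48% of all features). Their median was 0.23 and 49 were above 0, against 47.6% of all features. Cyp4s3 stood at 15.3, 11.5 and 13.2 CPM in group-housed and 86.4, 90.4 and 64.5 CPM in isolated heads (log2 fold change 2.59, SE 0.19, adjusted p = 5.71e-07). Cyp309a1 stood at 61.6, 54.2 and 29.3 CPM in group-housed and 188, 148 and 164 CPM in isolated heads (log2 fold change 1.78, SE 0.22, adjusted p = 0.00012). Its neighbour Cyp309a2 stood at 48.2, 49.1 and 36.5 CPM in group-housed and 161, 119 and 118 CPM in isolated heads (log2 fold change 1.57, SE 0.17, adjusted p = 2.75e-05). Cyp9b2 stood at 174, 170.0 and 152 CPM in group-housed and 369, 338 and 376 CPM in isolated heads (log2 fold change 1.13, SE 0.13, adjusted p = 5.93e-05). In all 4 the groups did not overlap. The other 18 rose by 0.63 to 1.74, and 4 of the list passed with isolated replicate 0 alone. In BDGP6.54 Cyp309a1 and Cyp309a2 lie next to each other on 2L, as do Cyp28d1 (log2 fold change 0.75) and Cyp28d2 (0.76). Cpr, the reductase that passes electrons to these enzymes, rose by 0.64 (SE 0.16, adjusted p = 0.0357). Of 21 UDP-glycosyltransferases 5 were higher (23.8%), with a median of 0.39. These were Ugt37A1, Ugt301D1 (0.76, adjusted p = 0.0046), Ugt36F1 (0.65, adjusted p = 0.0106), Ugt49B1 (0.82, adjusted p = 0.0116) and Ugt35C1 (0.83, adjusted p = 0.0154). Of 29 glutathione transferases 1 was higher, GstS1, at 0.62 (adjusted p = 0.023). That share (3.45%) is near the share of all features called (3.48%) and is not read as a result. Ugt37A1 stood at 0.360, 0.566 and 0.412 CPM in group-housed and 12.2, 4.95 and 4.86 CPM in isolated heads (log2 fold change 4.02, SE 0.70, adjusted p = 0.00404), and at 3.20 without group-housed replicate 0. The efflux transporter gene Mdr50, named after its values were seen, stood at 109, 116 and 100.0 CPM in group-housed and 460.4, 381 and 426 CPM in isolated heads (log2 fold change 1.96, SE 0.17, adjusted p = 3.32e-06). In further lists written after the values were seen, 6 of 24 neprilysin-type peptidases and 3 of 12 carboxylesterases were higher (25% of each, against 3.48% of all features called). Their medians were 0.33 and 0.43. As these lists were written with the values known, their shares are not read as a result. The members leading them were Nepl10 at 1.49 (SE 0.14, adjusted p = 8.65e-06) and Est-Q at 1.29 (SE 0.18, adjusted p = 0.000413). Cyp4s3, Cyp309a1, Cyp309a2, Cyp9b2 and Mdr50 held their calls in all 6 fits that left out 1 female library. Ugt301D1 lost its call without group-housed replicate 0 (adjusted p up to 0.093). Ugt36F1 lost its call without group-housed replicate 0 or isolated replicate 0 or 2 (adjusted p up to 0.117). Ugt49B1 and Ugt37A1 lost their calls without group-housed replicate 0 or isolated replicate 0 (adjusted p up to 0.13 and 0.093). Ugt35C1 lost its call without group-housed replicate 0 or 1 or isolated replicate 0 or 2 (adjusted p up to 0.148). GstS1 lost its call without group-housed replicate 0 or isolated replicate 0, 1 or 2 (adjusted p up to 0.176). Cpr lost its call without group-housed replicate 0 or 2 or isolated replicate 1 or 2 (adjusted p up to 0.216). With isolated replicate 0 alone the log2 fold change was 0.34 for Cpr and 0.56 for GstS1. Cyp4s3, Cyp309a1, Cyp309a2, Cyp9b2 and Mdr50 still passed with isolated replicate 0 alone.

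Immune genes were called in the Bomanin and Daisho list and in the recognition and signalling list. In the Bomanin and Daisho list, short peptides released under Toll signalling, 3 of 14 were higher (21.4%, against 3.48% of all features called) with a median of 0.10. Dso1 stood at 183, 294 and 267 CPM in group-housed and 550.3, 686 and 554 CPM in isolated heads (log2 fold change 1.29, SE 0.16, adjusted p = 9.73e-05). Dso2 stood at 4.06, 9.06 and 6.81 CPM in group-housed and 13.9, 29.7 and 23.9 CPM in isolated heads (log2 fold change 1.75, SE 0.30, adjusted p = 0.0021). BomBc1 stood at 8.79, 15.996 and 18.6 CPM in group-housed and 33.4, 35.97 and 30.9 CPM in isolated heads (log2 fold change 1.31, SE 0.26, adjusted p = 0.00681). The groups did not overlap in any of the 3. None of 17 antimicrobial peptide genes passed (median -0.20), which in a list of this size is not read as a result. AttC stood at 284, 287 and 218 CPM in group-housed and 332, 409.6 and 385 CPM in isolated heads (log2 fold change 0.49, SE 0.29, adjusted p = 0.492). Of 35 recognition and signalling genes 4 were higher (11.4%), with a median of 0.22, Tep2 and 3 others (0.87 for PGRP-SD with adjusted p = 0.0303, 0.64 for PGRP-SB1 with adjusted p = 0.0146 and 0.54 for spz with adjusted p = 0.0373). Tep2, a thioester protein gene, stood at 463, 390.3 and 318 CPM in group-housed and 982, 686 and 738 CPM in isolated heads (log2 fold change 1.03, SE 0.16, adjusted p = 0.00114). Of 20 hemocyte and matrix genes 2 were higher (10%), with a median of 0.39 (0.86 for LanB2 with adjusted p = 0.0136 and 0.77 for eater with adjusted p = 0.0316). The hemocyte markers Hml, eater and NimC1 were highest in batch 1 in both groups, with Hml at 1424 CPM of the library total in group-housed replicate 0 and 1369 in isolated replicate 0 against 479 to 707 in the other female libraries, so the groups overlapped across batches. Within batch 2 they were apart, at 567 and 479 against 707 and 661 for Hml in isolated females. There eater was at 16.7 and 18.7 against 34.8 and 26.4, and NimC1 at 71.0 and 54.4 against 110 and 79.4. In the edgeR fit Hml (0.45, adjusted p = 0.325) and NimC1 (0.61, adjusted p = 0.0521) did not pass. Ndg, a basement membrane protein gene named after its values were seen, stood at 83.7, 91.7 and 81.9 CPM in group-housed and 212, 212 and 185 CPM in isolated heads (log2 fold change 1.25, SE 0.14, adjusted p = 3.51e-05). Dso1, Dso2, Tep2 and Ndg held their calls in all 6 fits that left out 1 female library. BomBc1 lost its call without group-housed replicate 0 or isolated replicate 0 (adjusted p up to 0.101). PGRP-SD lost its call without group-housed replicate 0 or 1 or isolated replicate 0 or 2 (adjusted p up to 0.273). PGRP-SB1 lost its call without group-housed replicate 0 or isolated replicate 0 or 1 (adjusted p up to 0.0963). spz and eater lost their calls without group-housed replicate 0 or 1 or isolated replicate 0, 1 or 2 (adjusted p up to 0.179 and 0.188). LanB2 lost its call without isolated replicate 1 or 2 (adjusted p up to 0.099). With isolated replicate 0 alone the log2 fold change was 0.55 for LanB2, 0.60 for eater, 0.61 for PGRP-SB1 and 0.53 for spz. Dso1, Ndg and PGRP-SD still passed with isolated replicate 0 alone. Dso2, Tep2 and BomBc1 did not pass with that library alone (adjusted p = 0.353, 0.123 and 0.0571).

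By level per kilobase of exon, the most abundant called genes included several further secreted proteins. Beside Lsp2, Yp2, Yp3 and Dso1, these were Tsf1, the iron carrier transferrin, CG2233, Sap-r, the precursor of lysosomal saposins, Idgf4, a chitinase-like growth factor, and Cys, a cystatin-type protease inhibitor. Tsf1 went from 891 to 1597 CPM per kilobase of exon (log2 fold change 0.85, SE 0.18, adjusted p = 0.0146). CG2233 went from 675 to 1493 CPM per kilobase of exon (log2 fold change 1.16, SE 0.18, adjusted p = 0.00113). Sap-r went from 428 to 702 CPM per kilobase of exon (log2 fold change 0.72, SE 0.18, adjusted p = 0.0321). In all 3 every isolated library lay above every group-housed one. Idgf4 went from 383 to 649.6 CPM per kilobase of exon (log2 fold change 0.76, SE 0.17, adjusted p = 0.0151). Cys went from 414 to 614 CPM per kilobase of exon (log2 fold change 0.56, SE 0.15, adjusted p = 0.0465). The ribosomal RNA pseudogene 28SrRNA-Psi:CR45859 also ranked there, at 129.9, 1891 and 2706 CPM in group-housed and 418, 3268 and 3877 CPM in isolated heads (log2 fold change 1.01, SE 0.25, adjusted p = 0.0349). It was higher in batch 2 in both groups, and the groups overlapped. Rows named for ribosomal RNA took 0.339%, 0.894% and 1.48% of counts in group-housed and 0.616%, 1.39% and 1.39% in isolated females. In a list written after the values were seen, 4 of 11 tested ribosomal RNA pseudogenes were called higher. That share (36.4%, against 3.48% of all features called) is not read as a result. The part of residual ribosomal RNA in those calls was not tested. CG2233 held its call in all 6 fits that left out 1 female library. Tsf1 lost its call without group-housed replicate 0 or isolated replicate 0 or 1 (adjusted p up to 0.115). Sap-r and Idgf4 lost their calls without group-housed replicate 0 or isolated replicate 0, 1 or 2 (adjusted p up to 0.198 and 0.125). Cys lost its call without group-housed replicate 0 or 2 or isolated replicate 0, 1 or 2 (adjusted p up to 0.259). 28SrRNA-Psi:CR45859 lost its call without group-housed replicate 0 or 1 or isolated replicate 0 or 2 (adjusted p up to 0.242). 28SrRNA-Psi:CR45859 still passed with isolated replicate 0 alone. CG2233, Tsf1, Sap-r, Idgf4 and Cys did not pass with that library alone (adjusted p = 0.0668, 0.577, 0.953, 0.819 and 0.934).

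Among the lists of nervous system genes, calls lay in those of neuropeptides, of activity-regulated genes and of monoamine synthesis and transport. Each held only 1 or 2 called genes, and such counts are not read as a result about the lists. In the last, 1 of 14 genes was called (7.14%), Hn, described above under amino acid breakdown. None of 18 neuron genes, 20 photoreceptor genes, 14 glia genes, 34 neuropeptide receptor genes, 17 monoamine receptor genes, 13 clock genes or 19 insulin signalling genes passed, with medians between -0.07 and 0.18. Neither did any of 20 muscle genes, 67 oxidative phosphorylation genes, 19 heat shock genes or 85 cytosolic ribosomal protein genes (medians 0.10, -0.05, -0.03 and -0.13). Since 3.48% of all features were called, a count of 0 in lists of these sizes is not read as a result. The synaptic gene cpx was at 0.15 (SE 0.25, adjusted p = 0.852), the main rhodopsin gene ninaE at 0.17 (SE 0.22, adjusted p = 0.8) and the clock gene Pdp1 at 0.04 (SE 0.26, adjusted p = 0.966). The ecdysone and dopamine receptor gene DopEcR was at 0.07 (SE 0.19, adjusted p = 0.917), the kinase gene S6k at -0.05 (SE 0.21, adjusted p = 0.955) and the muscle myosin gene Mhc at 0.01 (SE 0.20, adjusted p = 0.989). All of these had overlapping groups, and signs so close to 0 flipped with the scaling or the library left out. Of 11 activity-regulated genes 1 was higher and 1 lower (18.2% called). Arc1, which encodes a capsid-forming protein of neurons, stood at 65.3, 56.1 and 72.8 CPM in group-housed and 165, 147 and 118 CPM in isolated heads (log2 fold change 1.17, SE 0.23, adjusted p = 0.00773). cbt, a transcription factor gene, stood at 86.03, 64.3 and 58.98 CPM in group-housed and 44.4, 45.9 and 38.2 CPM in isolated heads and fell by 0.71 (SE 0.18, adjusted p = 0.0358). Of 32 tested neuropeptide genes none was higher and 2 were lower (6.25% called), with a median of -0.19 and 10 above 0. Dsk, which encodes the satiety peptides drosulfakinins, stood at 47.8, 51.2 and 74.03 CPM in group-housed and 28.8, 33.7 and 32.96 CPM in isolated heads and fell by 0.84 (SE 0.17, adjusted p = 0.0102). CNMa, a neuropeptide gene of low level, stood at 6.32, 6.23 and 6.60 CPM in group-housed and 1.83, 0.450 and 2.08 CPM in isolated heads and fell by 2.02 (SE 0.52, adjusted p = 0.0435). Both had groups that did not overlap. Arc1 lost its call without isolated replicate 0 (adjusted p up to 0.0868). cbt lost its call without group-housed replicate 0 or 1 or isolated replicate 0 or 2 (adjusted p up to 0.222). Dsk lost its call without isolated replicate 0, 1 or 2 (adjusted p up to 0.0567). CNMa lost its call in each fit that left out 1 female library (adjusted p up to 0.186). Arc1 still passed with isolated replicate 0 alone. cbt, Dsk and CNMa did not pass with that library alone (adjusted p = 0.229, 0.486 and 0.831).

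**Figure D5:**
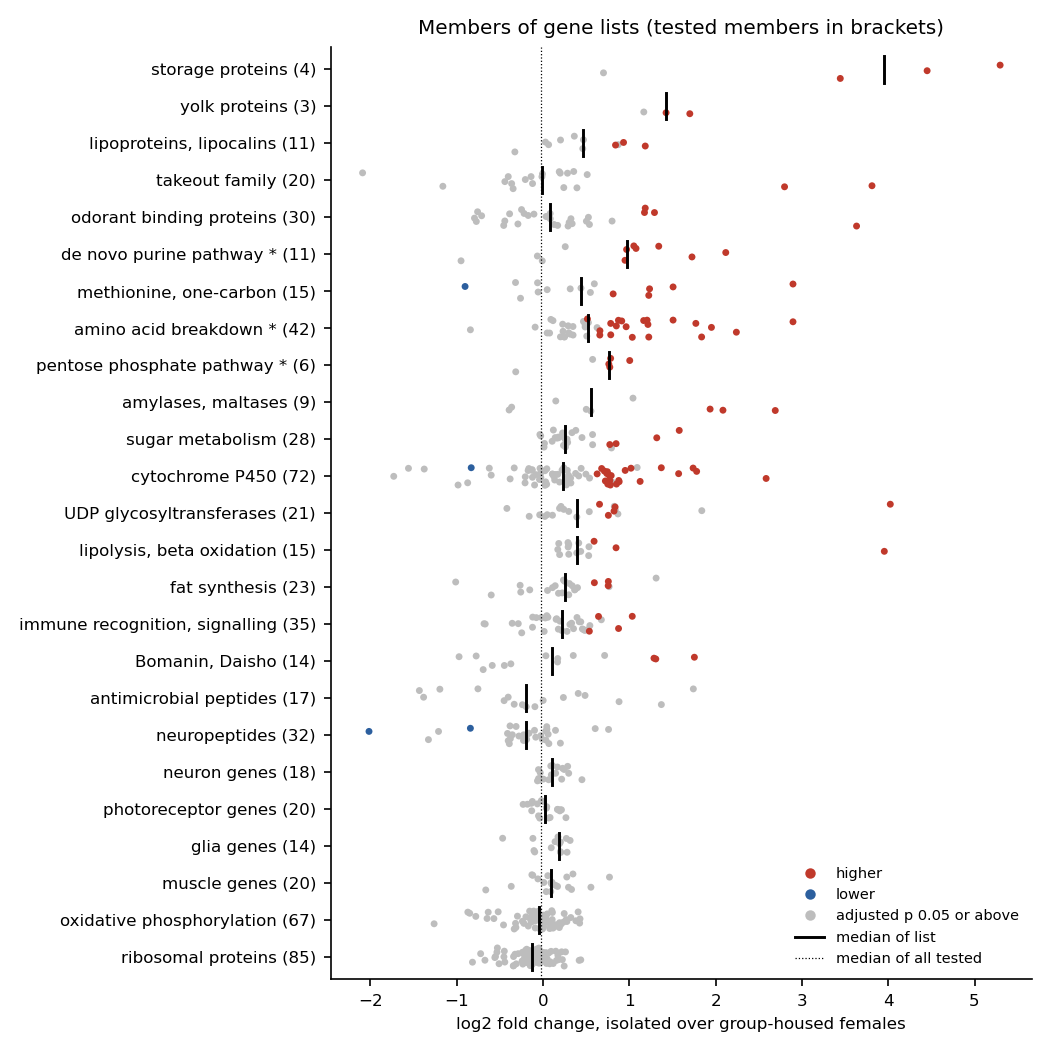
Log2 fold change of every tested member of 25 gene lists, with called members in red (higher) or blue (lower), the median of each list as a bar and the median of all tested features as a dotted line. Lists marked with an asterisk were written after the values were seen. Calls lie in the storage, metabolic, odorant binding, immune and neuropeptide lists among others. The neuron, photoreceptor, glia, antimicrobial peptide and ribosomal lists hold none, which in lists of these sizes is not read as a result.

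The 22 lower genes were spread over many functions, and 14 of them differed by less than 2-fold. Beside the neuropeptide genes and cbt described above, they were the following. MsrA, a methionine sulfoxide reductase, stood at 73.9, 91.9 and 84.8 CPM in group-housed and 42.3, 51.3 and 39.6 CPM in isolated heads and fell by 0.90 (SE 0.15, adjusted p = 0.00139), the 1 lower gene that held in all 6 fits leaving out 1 female library. Osi6, of the insect Osiris family, showed the largest fall, at 0.976, 43.6 and 37.1 CPM in group-housed and 0.108, 0.450 and 0 CPM in isolated heads (log2 fold change -6.43, SE 1.21, adjusted p = 0.00928). The high values were those of group-housed replicates 1 and 2, replicate 0 was near the isolated range, and the fitted value was -7.54 without replicate 0. Its neighbour Osi7 had the same pattern, at 1.13, 38.6 and 44.5 CPM in group-housed and 0.970, 1.80 and 2.43 CPM in isolated heads, and did not pass (log2 fold change -3.44, SE 0.89, adjusted p = 0.0611). The carbonic anhydrase gene CAH5 stood at 7.71, 5.95 and 1.24 CPM in group-housed and 0.539, 0 and 0.347 CPM in isolated heads and fell by 3.89 (SE 0.91, adjusted p = 0.0225). CG7227 stood at 66.3, 57.5 and 47.6 CPM in group-housed and 15.1, 36.9 and 19.4 CPM in isolated heads and fell by 1.32 (SE 0.33, adjusted p = 0.0362). CG11211 stood at 47.3, 33.1 and 43.5 CPM in group-housed and 19.6, 24.3 and 24.3 CPM in isolated heads and fell by 0.89 (SE 0.19, adjusted p = 0.0124). Gclm, the regulatory subunit of the first enzyme of glutathione synthesis, stood at 78.6, 109 and 91.8 CPM in group-housed and 52.5, 56.6 and 57.6 CPM in isolated heads and fell by 0.73 (SE 0.17, adjusted p = 0.0178). The proton pump subunit gene VhaM9.7-a stood at 58.4, 41.1 and 62.5 CPM in group-housed and 37.3, 24.3 and 20.8 CPM in isolated heads and fell by 0.93 (SE 0.21, adjusted p = 0.0178). Apart from the call of Cyp4d1 in the P450 list, the rest were Boh1, Sas10, CG44242, CG11180, GIIIspla2, CG10366, CG3548, Sidpn, Pdss2, rad50 and CG9759, with log2 fold changes from -1.98 (Boh1) to -0.56 (CG9759). Osi6 lost its call without isolated replicate 1 or 2 (adjusted p up to 0.0792). CAH5, Gclm and Sidpn lost their calls without group-housed replicate 0 or 1 or isolated replicate 0, 1 or 2 (adjusted p up to 0.175, 0.0972 and 0.143). CG7227 lost its call without group-housed replicate 0 or 1 or isolated replicate 0 or 2 (adjusted p up to 0.193). CG11211 lost its call without group-housed replicate 0 or isolated replicate 0 (adjusted p up to 0.141). VhaM9.7-a lost its call without group-housed replicate 0 or isolated replicate 1 or 2 (adjusted p up to 0.119). Boh1, Sas10, CG11180 and Pdss2 lost their calls in each fit that left out 1 female library (adjusted p up to 0.199, 0.2, 0.288 and 0.179). CG44242, CG10366 and CG3548 lost their calls without group-housed replicate 0 or 1 or isolated replicate 1 or 2 (adjusted p up to 0.149, 0.177 and 0.202). GIIIspla2 lost its call without group-housed replicate 0 or 1 or isolated replicate 0 or 1 (adjusted p up to 0.273). Cyp4d1 lost its call without group-housed replicate 1 or isolated replicate 0, 1 or 2 (adjusted p up to 0.206). With isolated females represented by replicate 0 alone, CG7227 was the only lower gene called, at -2.26.

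The higher genes lay on all the large chromosome arms in shares like those of all tested genes, for example 27.4% against 24.5% on 3R and 19.9% against 20.6% on 2R. None of the 94 tested genes of chromosome 4 was among them. Since 3.26% of all features were higher, a count of 0 there is not read as a result. By position, 53 of 332 (15.96%) had another higher gene as the next tested gene on at least 1 side, against 6.24% of the 9469 tested genes that were not higher. Such pairs were to and CG11854, Cyp309a1 and Cyp309a2, Amy-p and Amy-d, Dso1 and Dso2, meep and CG9119, Sodh-1 and CG1979, Fbp1 and CG8100, fiz and CG9512, Obp99a and ppk30, and LManI and LManII. Several are tandem copies of a family, and shared reads between copies were not tested. atk and mag form another pair, since mag lies inside the interval of atk on 3L without sharing exon sequence.

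Males went through the same housing, and the difference between the sexes in the response was tested in the same fit. It passed for 44 features in which the response was greater in females (0.43%), all of them among the 334, and for 1, CG11211, in which it was lower (0.00977%). Of the 334 higher features 2, CG10621 and Cyp6a8 passed in males too, at 0.95 and 0.84 against 1.68 and 0.63 in females. The median male log2 fold change of the higher genes was 0.15, with 269 of 332 above 0. Among the purine genes, Gart differed between the sexes by 1.41 (SE 0.29, adjusted p = 0.0375) and CG11089 by 1.22 (SE 0.24, adjusted p = 0.0298), with male levels of 352 to 572 CPM and 399.6 to 566 CPM from group to isolation. Sardh differed by 1.56 (SE 0.18, adjusted p = 0.000332), while its substrate's producer Gnmt differed by 2.23 (SE 0.36, adjusted p = 0.00683). Of the threonine genes, Gcat differed by 1.58 (SE 0.22, adjusted p = 0.00179) and CG5955 by 1.36 (SE 0.23, adjusted p = 0.00712). For bmm, Hn and Arc1, called in females, the difference did not pass, at 0.61 (SE 0.19, adjusted p = 0.273), 0.63 (SE 0.21, adjusted p = 0.375) and 0.98 (SE 0.32, adjusted p = 0.352).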

How the data were processed

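PolyA RNA of whole heads was sequenced in 12 libraries, of which the 6 female ones carry the comparison. What the authors deposited are raw read counts, whole numbers for each feature and library without normalisation. The submitters' processing notes list, without roles, HTSeq 2.0.5, STAR 2.7.10b, edgeR 4.4.1, Picard 2.27.5 and R 4.4.0. The genome build, annotation and strand setting of the counting were not given in the sources used here. Lines that name no gene (10.2% to 13.2% of each column) entered neither library sizes nor tests, and 1 further column of numbers per gene, tied to no sample, was not used. The 17856 FBgn identifiers were matched to the BDGP6.54 annotation (17816 found), from which positions, exon lengths and overlaps come.

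Counts were analysed with edgeR 4.0.16 and limma 3.58.1 in R 4.3.3. filterByExpr (minimum count 10, minimum total 15) kept 10238 features. TMM factors were computed, and robust quasi-likelihood fits used all 12 libraries, with a mean for each of 4 groups plus a batch term (7 residual degrees of freedom). glmQLFTest p-values were adjusted by the Benjamini-Hochberg method over all features, with a threshold of 0.05. The SE is the size of the log2 fold change divided by the square root of F. List sums and marker levels use library totals without TMM. Between replicates of a group, chi-square over its degrees of freedom was 4.48 to 65.7, beyond sampling noise, so each library is 1 replicate. Total counts of the female libraries, 2584050 to 17122099, limit what low genes can show. The column of isolated male replicate 1 is marked as merged and was used as 1 replicate.

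The members, the tests and the 47 gene lists were chosen with earlier results of these data known, and 14 further lists were written after the values were seen. Named genes are takeout, the 20 largest rises and falls at a mean level of at least 1 log2 CPM, the 10 most abundant called genes per kilobase, and from each of the 47 lists the 4 called members with the smallest p or, where none was called, the most abundant member. Members of these lists beyond that, members of the 14 further lists, CG10814, Mdr50, Ndg, bw, Osi7, rad50 and CG9759 were named after their values were seen. Alternatives changed the scaling, the filter, the batch term or the libraries in the fit (each female library left out in turn among them), or used limma-voom or DESeq2 1.42.0.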

Additional observations from a re-analysis of the deposited data

Results flagged for a closer look

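The response to isolation differed between the sexes, in the interaction term of the edgeR fit at an adjusted p under 0.05, for 45 features. Given as female minus male log2 fold change, the difference was 3.08 for takeout (to), 5.47 for Fbp1, 3.88 for atk, 3.74 for Lsp1alpha and 3.62 for Gr59f. For Obp99b it was 2.93, for Lsp2 2.53, for fiz 3.16, for CG34166 2.61 and for CG10962 2.19. Among metabolic and detoxification genes it was 2.23 for Gnmt, 1.56 for Sardh, 1.41 for Gart, 1.00 for ry, 1.34 for tobi, 2.01 for Cyp4s3, 1.43 for Cyp309a2 and 0.87 for Cyp9b2. It was 1.31 for Dso1 and 1.10 for Mtp. CG11211 was the 1 feature with a lower response in females, with a difference of -1.34.

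In rows outside the gene set, 2 transposable element insertions were higher in isolated females, with log2 fold changes of 1.41 for an INE-1 insertion and 2.41 for a copia insertion. The INE-1 insertion held its call in all 6 fits that left out 1 female library (adjusted p up to 0.0411, edgeR) and had an adjusted p = 0.272 with isolated replicate 0 alone. The copia insertion lost its call in each of the 6 fits (adjusted p up to 0.169), moved to 3.14 without group-housed replicate 0, and had an adjusted p = 1 with isolated replicate 0 alone.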

How the results depend on the processing

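Of 334 higher features in females, library totals alone gave 134, the female libraries alone with a replicate block 187, batch 2 alone 78 and isolated replicate 0 alone 90. Leaving out 1 female library gave 148 to 411 higher features, lowest without group-housed replicate 0 (148) and isolated replicate 0 (168). In place of 22 lower features, upper quartile scaling gave 37, no filter 75, DESeq2 71, limma-voom 38, no batch term 10, the female libraries alone 8 and with a replicate block 5, batch 2 alone 6 and isolated replicate 0 alone 1. Leaving out 1 library gave 6 to 53 lower features: 53 without group-housed replicate 2, 10 and 9 without group-housed replicates 0 and 1, and 7 and 6 without isolated replicates 1 and 2. The total of 356 became 167, 192, 84 and 91 under the 4 settings named first, and 158 to 464 on leaving out 1 library. For the 45 differences between the sexes, library totals gave 15, no filter 168, DESeq2 141, limma-voom 71, no batch term 28, a replicate block 69, batch 2 alone 12, isolated replicate 0 alone 10, and leaving out 1 library 30 to 75 (75 without group-housed replicate 2). The causes were not tested, except that settings on fewer libraries have fewer samples.

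Upper quartile scaling moved the median of all features by -0.11. takeout passed under every alternative run, with log2 fold changes from 2.29 to 3.31 and, on leaving out 1 library, 2.45 to 3.22.

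The replicate numbers did not pair the samples: same-numbered female libraries had deviations that correlated at 0.505, 0.176 and -0.034. With a replicate block in place of the batch term 395 features passed in females.

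Some genes that did not pass changed sign. With library totals the log2 fold change was -0.14 for Pdp1, -0.12 for DopEcR, -0.028 for cpx, -0.022 for ninaE, -0.21 for Mhc, -0.017 for ATPsynbeta and -0.075 for Cp1, and with upper quartile scaling -0.057 for Pdp1, -0.034 for DopEcR and -0.10 for Mhc. With isolated replicate 0 alone it was 0.020 for Orco, 0.11 for S6k, -0.036 for Pdp1 and -0.016 for ninaE. Other values were -0.0032 for Pdp1 in batch 2 alone, -0.018 for Mhc with no filter, -0.0056 for Mhc in females when their libraries were fitted alone, and 0.0019 for S6k and -0.0029 for Mhc there with a replicate block. On leaving out 1 library, the values ran from -0.29 to 0.33 for S6k, -0.10 to 0.31 for Pdp1, -0.12 to 0.28 for DopEcR, -0.14 to 0.0083 for Hsc70-4, -0.10 to 0.50 for cpx, -0.0034 to 0.36 for ninaE and -0.054 to 0.043 for Mhc.

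Isolated replicates 1 and 2 are the shallowest libraries, so low levels there rest on few reads, and fold changes of genes near 0 depend on the fit.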
